A study of Zea mays with 2 samples.

Results

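Loci scattered over the maize chromosomes whose transcripts were at least 2-fold higher in endosperm of the opaque2 mutant than in wild type endosperm are described here. A locus had to lie on chromosomes 1 to 10 outside 3 regions, namely chromosome 7, chromosome 4 below 10 Mb and chromosome 3 from 15 to 30 Mb. It also had to span 300 bp or more, be above 0 in both libraries, reach 20 FPKM in the higher library and stay below a mean of 500 FPKM. FPKM scales the fragments of a locus by transcript length and by library size. Of 44119 loci, 5135 met these conditions and are called eligible, and 138 of them, 2.69%, had a ratio of opaque2 over wild type of 2 or more after 1 FPKM was added to both values. These 138 are called raised loci. They were chosen by the FPKM values of both libraries, the same values that are described here, so their direction and the size of their difference carry no test and support nothing. In the mirror direction, 142 eligible loci, 2.77%, were lowered at least 2-fold.

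Opaque2 is a bZIP transcription factor that activates genes of the grain filling phase, among them zein storage protein genes and genes of nitrogen and carbon metabolism. Kernels that lack its function are soft and chalky, hold less zein and hold relatively more lysine, because other proteins make up a larger share of the grain. The factor is known mainly as an activator of transcription.

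The study profiled endosperm RNA of maize at 15 days after pollination, 1 sample labelled wild type and 1 labelled opaque2 mutant. The sources used here give neither the allele of opaque2 nor the inbred background of either genotype, nor the relation of the triplicates named in the design to the single value per locus. With 1 value per genotype there is no replicate check of any difference, and no p-value is given. The summed values were 2138613 FPKM in the mutant against 2137410 FPKM in wild type, and the median log2 ratio of eligible loci was 0.01. Depth is unknown because the files hold no counts. Endosperm identity could not be checked against marker genes, because the nuclear loci are given by position without gene names. In bulk tissue, a shift in cell makeup and a shift in transcript per cell cannot be told apart.

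The raised loci covered a wide range of levels, and 84 of the 138 differed by less than 3-fold. In wild type their levels ran from 1.40 FPKM to 183 FPKM with a median of 16.9 FPKM, against 34.2 FPKM for all eligible loci. In opaque2 they ran from 20.1 FPKM to 635 FPKM with a median of 54.4 FPKM, against 34.25 FPKM for all eligible loci. These gaps follow in part from the rule, as a raised locus reaches 20 FPKM in opaque2 and is lower in wild type. The median raised locus stood at percentile 85.0 of all loci of the regions in wild type and at percentile 95.6 in opaque2, places that largely follow from the floor of 20 FPKM. Summed over the 138 loci, the level was 12592 FPKM in the mutant against 4213 FPKM in wild type, a ratio of 2.99. For 84 of them the ratio lay between 2 and 3, for 21 between 3 and 4, for 24 between 4 and 8, for 4 between 8 and 16, and for 5 it was 16 or more. The 33 loci of 4-fold or more were 0.643% of the eligible loci. Only 16 raised loci were below 5 FPKM in wild type, and they were all of the eligible loci with so low a wild type level, as the floor of 20 FPKM in the higher library requires.

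**Figure D1:**
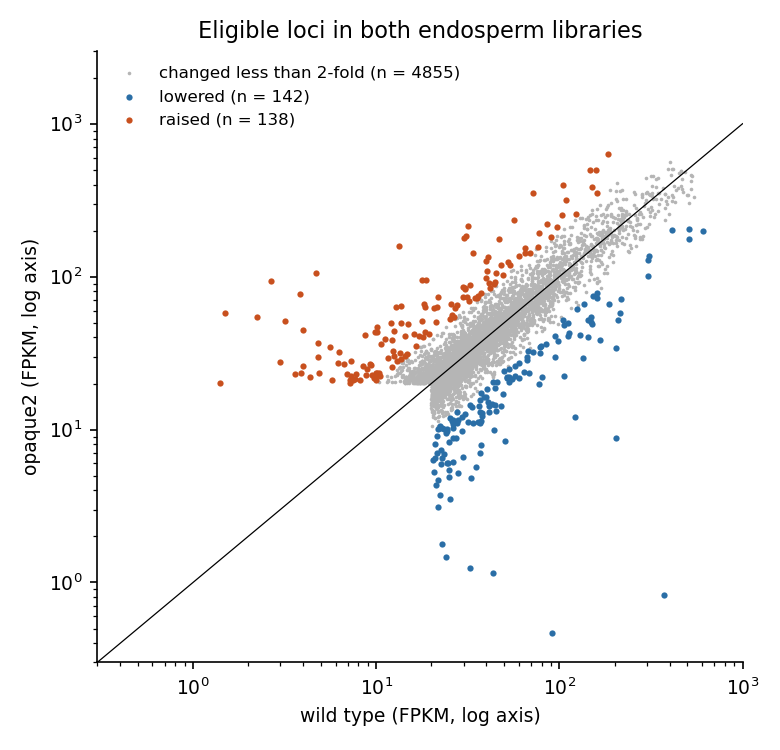
FPKM in wild type (x, log axis) and in opaque2 (y, log axis) for the 5135 eligible loci, 1 point per locus, with the line of equal values. The 138 raised loci lie above the line over the whole range from 1.40 to 183 FPKM in wild type, the 142 lowered loci lie below it, and the other 4855 form the band between.

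The largest ratios belonged to loci that were low in wild type, 10 of the first 12 being under 5 FPKM there. This partly follows from the rule, since a locus so low in wild type had to reach 20 FPKM in opaque2. The highest was on chromosome 1 at 287062939 to 287065014, a locus of 2076 bp with 94.1 FPKM in the mutant against 2.67 FPKM in wild type (log2 ratio 4.70, pseudocount 1). On chromosome 2 at 11099957 to 11102613, a locus of 2657 bp had 58.0 FPKM in the mutant against 1.5 FPKM in wild type (log2 ratio 4.56). Without the pseudocount the order of these loci turned, with a ratio of 35.3 for the chromosome 1 locus and 38.8 for the chromosome 2 locus. On chromosome 8 at 21614898 to 21616013 the levels were 104.9 FPKM in the mutant against 4.67 FPKM in wild type (log2 ratio 4.22). These loci were each alone at their position, so no second model could take part of their reads there.

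The next places were held partly by loci that share their position with another locus. On chromosome 9 at 140353421 to 140361196 one locus had 54.5 FPKM in the mutant against 2.24 FPKM in wild type (log2 ratio 4.10), while its partner in the same span had 6.93 FPKM and 8.0 FPKM. On chromosome 5 at 15696662 to 15703076 one locus had 77.4 FPKM in the mutant against 3.84 FPKM in wild type (log2 ratio 4.02), and its partner had 32.0 FPKM and 20.7 FPKM. In both spans the locus with the large ratio was the lower of the pair in wild type and the higher in opaque2. Summed over the span, the log2 ratio was 2.47 on chromosome 9 and 2.11 on chromosome 5 against 4.10 and 4.02 for the raised loci alone. On chromosome 1 at 38847219 to 38848169 both loci of the span were higher in opaque2. One had 159 FPKM in the mutant against 13.3 FPKM in wild type (log2 ratio 3.49), and the other had 8.26 FPKM and 0.630 FPKM.

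The rest of the first 12 lay on 6 chromosome positions spread over chromosomes 1, 2, 4, 6 and 8. On chromosome 1 at 33459256 to 33460463 the levels were 51.2 FPKM in the mutant against 3.18 FPKM in wild type (log2 ratio 3.64). On chromosome 2 at 14892972 to 14893775 they were 44.6 FPKM and 4.01 FPKM (log2 ratio 3.19). Both stood alone at their positions. On chromosome 6 at 2038613 to 2045313 they were 20.1 FPKM and 1.40 FPKM (log2 ratio 3.13), the lowest wild type level of all raised loci. A partner at the same position had 3.52 FPKM and 3.38 FPKM, and the log2 ratio of their sums was 2.09. On chromosome 8 at 155438410 to 155439859 they were 27.8 FPKM and 2.97 FPKM (log2 ratio 2.86). The last 2 differed in level but hardly in ratio. On chromosome 6 at 139452535 to 139454641 they were 215 FPKM and 31.9 FPKM (log2 ratio 2.72), beside a partner below 1 FPKM in both libraries, and on chromosome 4 at 232056300 to 232056936 they were 36.9 FPKM and 4.81 FPKM (log2 ratio 2.71). The 21 further loci of 4-fold or more ran from 21.9 to 353 FPKM in opaque2 and from 3.6 to 71.7 FPKM in wild type.

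**Figure D2:**
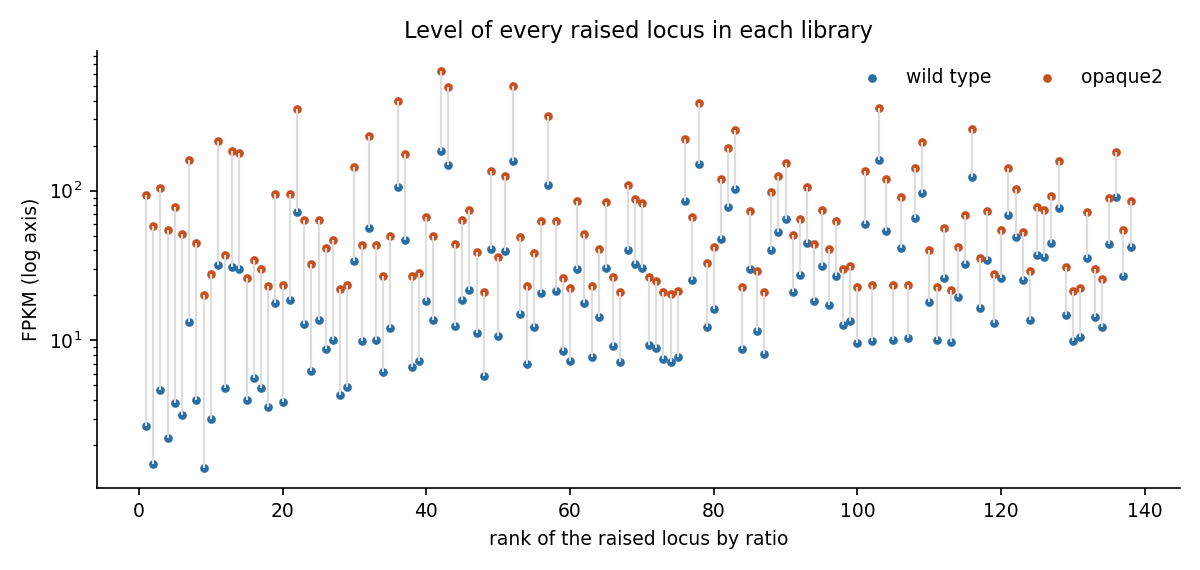
FPKM (y, log axis) of each of the 138 raised loci in wild type (blue) and opaque2 (orange), joined by a line and ordered by ratio from the highest (x). Low wild type levels gather at the left, which partly follows from the floor of 20 FPKM in the higher library. The 8 loci of highest opaque2 level, up to 635 FPKM, stand at ranks from 22 to 103 and not among the first 12.

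The most abundant raised transcripts differed by ratios of 2.22 to 4.93 without a pseudocount. The highest lay on chromosome 4 at 199076122 to 199077395 and had 635 FPKM in the mutant against 183 FPKM in wild type (log2 ratio 1.79). Another raised locus in the same span had 157 FPKM and 76.7 FPKM (log2 ratio 1.02), and the last locus there, with 53.6 FPKM and 41.6 FPKM, was not raised. The span as a whole had 845.5 FPKM in the mutant against 301.6 FPKM in wild type (log2 ratio 1.48). On chromosome 10 at 127370239 to 127371829 the levels were 499 FPKM in the mutant against 159 FPKM in wild type (log2 ratio 1.64). On chromosome 1 at 226777770 to 226780678 they were 496 FPKM and 148 FPKM (log2 ratio 1.74). These 3 loci thus had similar ratios at similar levels. On chromosome 3 at 181564721 to 181565546 they were 396 FPKM and 105 FPKM (log2 ratio 1.90), and on chromosome 5 at 163945019 to 163945467, a span of 449 bp, they were 384 FPKM and 151 FPKM (log2 ratio 1.35). The largest ratio among the 8 most abundant raised loci belonged to the locus on chromosome 1 at 258363413 to 258366763, which had 353 FPKM in the mutant against 71.7 FPKM in wild type (log2 ratio 2.29). On chromosome 1 at 251088454 to 251096714 the levels were 316 FPKM and 109 FPKM (log2 ratio 1.53). The smallest ratio of the 8 belonged to the locus on chromosome 8 at 119372356 to 119376074, which had 355 FPKM and 160 FPKM (log2 ratio 1.15). A limit of the rule bears on this end of the scale, since 8 further loci raised 2-fold were left out for a mean of 500 FPKM or more. At the other end, 23 loci of 300 bp or more with 20 FPKM or more in opaque2 were left out because they were listed at 0 in wild type.

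The ratio of 2 lay in the tail of the distribution, since the quartiles of the log2 ratio over all eligible loci were −0.20 and 0.24. Just inside were loci on chromosome 10 at 102125305 to 102126091 (182 FPKM in the mutant against 90.4 FPKM in wild type), chromosome 1 at 299988513 to 299993142 (54.6 and 26.7 FPKM) and chromosome 1 at 263143605 to 263149463 (84.8 and 41.9 FPKM). Just outside were loci on chromosome 8 at 70511037 to 70513637 (150.5 and 74.9 FPKM), chromosome 4 at 160954463 to 160955623 (27.7 and 13.4 FPKM) and chromosome 1 at 246683972 to 246685909 (31.1 and 15.1 FPKM). Between ratios of 2 and 2.2 lay 34 eligible loci, and between 1.8 and 2 lay 64. No gap in the ratios marks the threshold.

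The raised loci had short spans. Their median span was 1945 bp, with quartiles at 901 and 3861 bp, while the 4855 loci that changed less than 2-fold had a median of 4196 bp with quartiles at 2564 and 6832 bp. The rule asked for 300 bp or more and used span in no other way. The lowered loci were short as well, with a median of 2232 bp, so short span went with change in either direction. Of eligible loci under 1000 bp, 8.82% were raised (39 of 442) and 8.14% were lowered. From 1000 to 2000 bp the shares were 5.40% raised and 4.50% lowered, and from 2000 to 4000 bp they were 2.31% and 2.64%. At 8000 bp or more they were 1.10% raised (11 of 1001) and 0.999% lowered. The spread of log2 ratios over all eligible loci narrowed along the same scale, from quartiles of −0.36 and 0.36 under 1000 bp to −0.17 and 0.16 at 8000 bp or more. Within the raised loci the median log2 ratio was 1.42 under 1000 bp and 1.29 at 8000 bp or more. Closeness of these medians partly follows from the rule, which keeps only ratios of 2 or more.

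**Figure D3:**
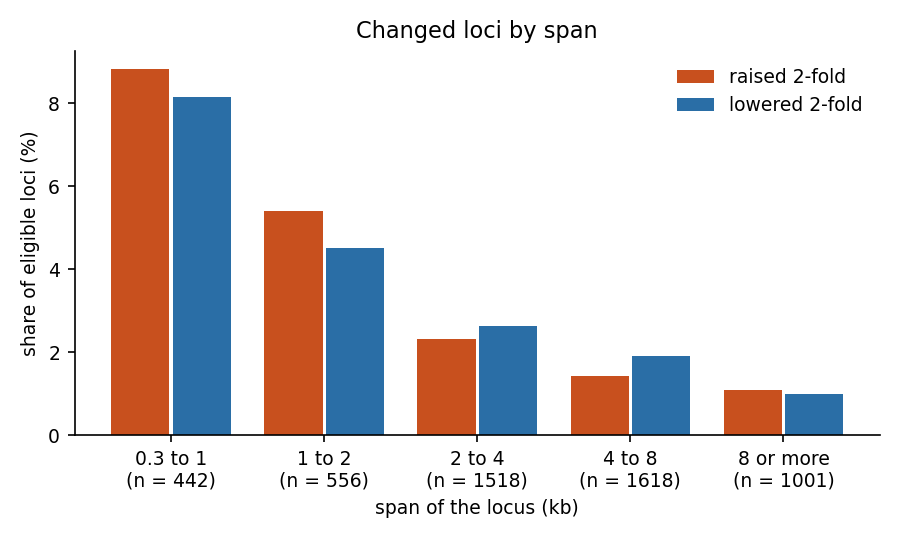
Share of eligible loci raised (orange) or lowered (blue) at least 2-fold (y, %) by span of the locus (x, kb), with the number of eligible loci in each class. Both shares fall together from 8.82% and 8.14% below 1 kb to 1.10% and 0.999% at 8 kb or more.

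The relation of span to change was also present among loci of like level. At 20 to 50 FPKM in the higher library, 6.32% of loci under 2000 bp were raised (35 of 554) and 1.05% of longer loci (29 of 2751). At 100 FPKM or more the shares were 8.78% (18 of 205) and 3.57% (17 of 476). Shorter loci were thus raised more often in both bands, and longer loci were raised more often at high than at low level. The same held for lowered loci, with 5.78% of shorter and 1.74% of longer loci lowered at 20 to 50 FPKM. At 100 FPKM or more these lowered shares were 8.78% and 3.36%. FPKM divides by length, and a short transcript yields few fragments for a given FPKM. The part of this in the result was not tested, since the files give neither counts nor transcript lengths.

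A few raised loci had very long spans, and 4 of the 6 longest shared their span with other loci. The files do not give the transcript length behind any span. The longest was on chromosome 1 at 31068644 to 31206122, 137479 bp, with 192 FPKM in the mutant against 77.7 FPKM in wild type (log2 ratio 1.29). The 2 other loci listed in that stretch stayed below 1 FPKM in both libraries. On chromosome 2 at 108630218 to 108681539, 51322 bp, the raised locus had 72.7 FPKM in the mutant against 34.6 FPKM in wild type (log2 ratio 1.05). On chromosome 3 at 135084015 to 135105483, 21469 bp, it had 84.2 FPKM and 30.4 FPKM (log2 ratio 1.44). In each of these stretches a single locus held nearly the whole signal. On chromosome 1 at 271369835 to 271384711, 14877 bp, a lone locus had 180 FPKM in the mutant against 30.2 FPKM in wild type (log2 ratio 2.53). On chromosome 1 at 7686554 to 7700991, 14438 bp, the levels were 49.9 FPKM and 13.6 FPKM (log2 ratio 1.8). The last of the 6 longest, on chromosome 8 at 159186574 to 159197570, had 30.1 FPKM and 14.4 FPKM (log2 ratio 1.02).

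Of the raised loci, 40 (29.0%, 95% Clopper-Pearson interval 21.6% to 37.3%, with loci taken as independent) shared their position with at least 1 other locus. Among all eligible loci the share was 24.8%, within that interval, and among the lowered loci it was 37.3%. These shares depend on span, as 28.3% of raised loci but 8.61% of eligible loci were under 1000 bp. At 1000 bp or more, 38.4% of raised, 26.8% of eligible and 49.1% of lowered loci shared their position. The eligible loci did not overlap any locus at another position, so a shared position stands for models merged into one stretch, among which reads may be split uncertainly. The 40 raised loci occupied 34 such positions, which held 75 loci in all. At 6 of these positions 2 loci were raised, and 35 partners were not raised loci. Of the partners, 15 were below 5 FPKM in both libraries. The other 20 had a median log2 ratio of 0.28, with 13 above 0, 3 at 2-fold or more and 0 lowered 2-fold. The background at this floor was 3.82% raised and 3.51% lowered, over 14277 loci of the same regions with 5 FPKM or more. With 0 of 20 lowered, the partners were near the lowered background of 3.51%, while 3 of 20 raised is a higher share than 3.82%. Both rest on few loci, and the difference was not tested. A ratio also hides a small fall of an abundant partner, so whether reads moved between partners was not tested.

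The loci of each position were also summed. A sum of FPKM still depends on how reads were split where the models differ in length, and the files do not give those lengths. Of the 34 shared positions, 25 were still 2-fold higher in opaque2 as a sum, and 9 were not. Each sum contains a raised locus that the rule chose, so a higher sum in opaque2 follows in large part from the rule. The sums ran from a log2 ratio of 0.12 to 3.50 with a median of 1.29, and none was below 0. The smallest was on chromosome 6 at 8675727 to 8677767, where the raised locus had 25.7 FPKM in the mutant against 12.3 FPKM in wild type beside a partner with 178 and 175 FPKM. On chromosome 5 at 12290388 to 12291897 the raised locus had 72.6 and 35.4 FPKM, and its partner 179 and 181.5 FPKM. On chromosome 3 at 8535160 to 8539024 it had 21.2 and 7.50 FPKM, and its partner 37.9 and 42.0 FPKM. In these 3 stretches the main transcript was nearly level between genotypes and the raised locus was the minor one, with sums within 1.5-fold. These 3 were chosen after their values were seen. The other 6 that fell short had log2 ratios of their sums from 0.75 to 0.97.

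At the 6 positions with 2 raised loci each, both loci were higher in opaque2, as the rule requires. Closeness of their ratios partly follows from the rule too, since the log2 ratios of all raised loci had quartiles of 1.14 and 1.94. On chromosome 8 at 53325913 to 53327460 one had 27.0 FPKM in the mutant against 6.67 FPKM in wild type (log2 ratio 1.87) and the other 38.4 and 12.2 FPKM (log2 ratio 1.58). On chromosome 6 at 134096678 to 134101001 they had 22.4 and 7.28 FPKM (log2 ratio 1.5) and 26.7 and 9.21 FPKM (log2 ratio 1.44). Apart from the chromosome 4 span given above, with log2 ratios of 1.79 and 1.02, the members of each of these pairs lay within 0.29 of each other on the log2 scale. On chromosome 2 at 26769801 to 26774601 the log2 ratios were 1.20 and 1.17, on chromosome 1 at 213655166 to 213664129 they were 1.27 and 1.03, and on chromosome 8 at 119372356 to 119376074 they were 1.15 and 1.04. Pairs of this kind share their stretch of the genome and are not independent cases.

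A further 4 pairs of raised loci lay within 100 kb of each other at separate positions. Within each pair the log2 ratios lay close together, which here too partly follows from the rule and was not tested. On chromosome 6, loci at 130456071 to 130456797 and 130459471 to 130460163, 2.67 kb apart, spanned 727 and 693 bp. The first had 32.2 FPKM in the mutant against 6.23 FPKM in wild type (log2 ratio 2.2), and the second 23.6 and 4.90 FPKM (log2 ratio 2.06). Also on chromosome 6, loci at 69249248 to 69249854 and 69253166 to 69253802, 3.31 kb apart, had 41.0 and 14.4 FPKM (log2 ratio 1.45) and 39.2 and 11.2 FPKM (log2 ratio 1.72). Nothing was listed between the members of either pair. On chromosome 10, loci at 80864563 to 80865256 and 80874447 to 80875294 had 119 and 47.9 FPKM (log2 ratio 1.30) and 109 and 40.1 FPKM (log2 ratio 1.42). The 1 locus listed between them was below 1 FPKM in both libraries. On chromosome 9, loci at 89332725 to 89333577 and 89392972 to 89394125, 59.4 kb apart with 0 loci between, spanned 853 and 1154 bp and had 36.1 and 10.6 FPKM (log2 ratio 1.67) and 21.0 and 5.74 FPKM (log2 ratio 1.70). Whether the members of a pair are copies that share reads cannot be told without their sequences. No group of more than 2 raised loci lay within 100 kb.

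The raised loci were found on all 9 chromosomes that the rule kept, with different shares. Chromosome 6 had the highest share, 4.13% (21 of 509 eligible loci, 95% Clopper-Pearson interval 2.57% to 6.24%), followed by chromosome 1 with 3.78% (35 of 925, interval 2.65% to 5.22%) and chromosome 5 with 3.09% (21 of 680). Chromosome 3 had the lowest, 1.31% (7 of 533, interval 0.530% to 2.69%), and chromosome 10 had 1.81% (6 of 331). Chromosomes 2, 4, 8 and 9 lay between, at 2.2%, 1.86%, 2.41% and 2.47%. The intervals of chromosomes 6 and 3 overlap slightly and treat loci as independent, so they give no order of the chromosomes. The lowered share ran from 1.86% on chromosome 4 to 3.6% on chromosome 9. The median log2 ratio of eligible loci lay between −0.02 and 0.03 on each chromosome, so no chromosome was shifted as a whole.

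**Figure D4:**
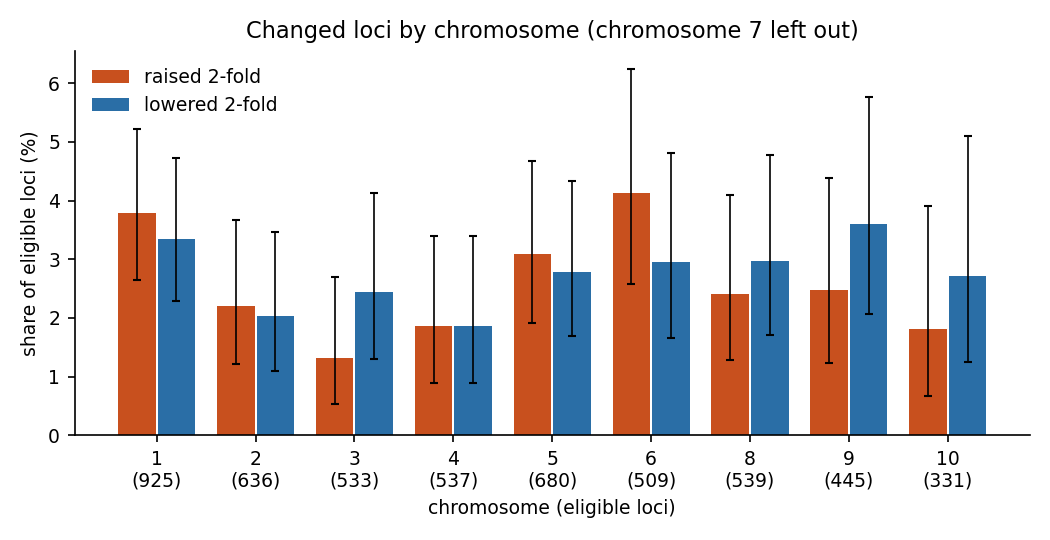
Share of eligible loci raised (orange) or lowered (blue) at least 2-fold (y, %) on each chromosome kept by the rule (x, with the number of eligible loci). Bars start at 0, and whiskers are 95% Clopper-Pearson intervals that treat loci as independent; raised shares run from 1.31% on chromosome 3 to 4.13% on chromosome 6.

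Within chromosomes the raised loci were thinly spread. Of 116 windows of 10 Mb with 20 or more eligible loci, 49 held 0 raised loci, 57 held 1 or 2, and 10 held 3 or more. Windows with both raised and lowered loci numbered 40, against 27 with raised loci alone, 30 with lowered loci alone and 19 with neither. The highest share in such a window was on chromosome 6 at 130 to 140 Mb, with 6 of 42 loci raised (14.3%) and 0 lowered. These 6 loci lay at 5 positions and include 2 of the pairs above. Its other 36 eligible loci had a median log2 ratio of 0.16, and 26 of them were above 0. The windows next in order were those of chromosome 3 from 130 to 140 Mb, where 3 of 22 loci were raised, and of chromosome 6 from 80 to 90 Mb, where 3 of 25 were, both with 0 lowered. These windows were picked as the highest, so their shares only describe them.

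On chromosome 6 the shares differed between the parts on either side of 60 Mb. From 60 Mb onwards 19 of 411 eligible loci were raised (4.62%) and 7 lowered (1.70%), whereas below 60 Mb 2 of 98 were raised (2.04%) and 8 lowered (8.16%). The lowered ones included 5 of 27 loci at 30 to 40 Mb, a window with 0 raised loci. On chromosome 1 the raised share was 2.51% below 150 Mb (10 of 398) and 4.74% beyond (25 of 527), while the lowered share was 3.02% and 3.61%. Both dividing points were chosen after the values were seen.

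Loci next to raised loci were described in a version without raised loci and a version with them. In the first, on each side of a raised locus the nearest locus of 5 FPKM or more was taken, leaving out raised loci and anything that overlapped one. These 276 flanking loci, 255 of them distinct, had a median log2 ratio of −0.05 with quartiles at −0.33 and 0.19, and lay at a median distance of 77.0 kb. Of them 8 were raised 2-fold (2.90%) and 14 lowered (5.07%). Around the 4855 loci that changed less than 2-fold, the flanking loci had a median of −0.04, with 2.73% raised and 3.23% lowered. The raised share beside raised loci was thus near that beside other loci, and the lowered share was somewhat higher. Around the lowered loci 2.46% of flanking loci were raised and 8.80% lowered. All 3 settings leave out raised loci, but not lowered loci, by construction, so every eligible locus raised 2-fold is missing from them by choice. Their raised shares, below the 3.82% of all loci at this floor, do not show that neighbours stayed level.

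Among the 8 raised flanking loci a few lay close by. On chromosome 5 a flanking locus at 185405145 to 185408787, 763 bp from a raised locus, had 11.9 FPKM in the mutant against 2.15 FPKM in wild type (log2 ratio 2.04). Its raised neighbour, at 185403879 to 185404382, had 153 and 65.0 FPKM (log2 ratio 1.22). On chromosome 1 a flanking locus at 276527769 to 276531407, 5536 bp from a raised locus, had 15.5 FPKM in the mutant against 0.129 FPKM in wild type. The raised neighbour there, at 276536943 to 276538152, had 43.9 and 12.5 FPKM (log2 ratio 1.74). The flanking locus with the highest level, on chromosome 9 at 106398227 to 106409066, had 1158 FPKM in the mutant against 66.8 FPKM in wild type (log2 ratio 4.10), but lay 573197 bp from the nearest raised locus. These 3 were chosen after their values were seen.

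The neighbours were also described with the raised loci kept among them and the loci of a position summed. At the first position to the left of the 132 raised positions 10 neighbours were raised (7.58%), and at the first to the right 7 (5.30%). At the same positions 4 (3.03%) and 9 (6.82%) were lowered. Around loci that changed less than 2-fold the raised shares were 3.38% and 3.71% and the lowered shares 2.97% and 3.12%. Around lowered loci the first neighbours were lowered in 7.86% and 10.7% and raised in 5.71% and 2.14%, so a higher share of changed neighbours was not seen for raised loci alone. At the positions from the second to the fifth, the shares around raised loci scattered between 1.52% and 6.82% without a trend. Each point around raised loci rests on 132 neighbours and thus on 2 to 10 raised ones. The pairs described above contribute to the first positions from both of their members. Among eligible loci within 100 kb of a raised locus at another position, 8 of 100 were raised, and these 8 are the members of the 4 pairs. Of the same 100 loci, 5 were lowered. Within 100 kb of loci that changed less than 2-fold, 58 of 2763 were raised (2.10%) and 65 lowered (2.35%), and within 100 kb of lowered loci 4 of 128 were raised (3.12%) and 11 lowered (8.59%). None of these differences was tested.

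**Figure D5:**
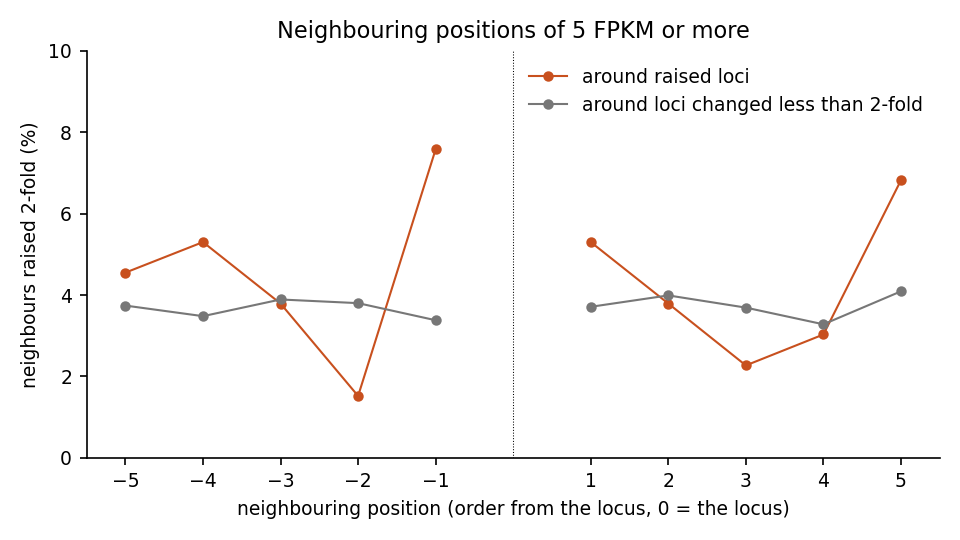
Share of neighbouring positions of 5 FPKM or more that were raised at least 2-fold (y, %) by their order from the locus (x, negative to the left), around the 132 positions of raised loci (orange) and around loci that changed less than 2-fold (grey). The grey points stay between 3.28% and 4.09%, while the orange points scatter between 1.52% and 7.58%, the latter at the first position to the left.

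Compared with the 142 lowered loci, the raised loci were of like number and like size of change. The likeness in size partly follows from the rule, which cuts both groups at 2-fold. The median log2 ratio was 1.41 for raised and −1.44 for lowered loci, and 33 raised and 26 lowered loci (0.506% of eligible loci) passed 4-fold. In the library where each was higher, the median level was 54.4 FPKM for raised and 42.9 FPKM for lowered loci. The most extreme lowered locus, at a log2 ratio of −7.68, lay farther from 0 than the most extreme raised locus at 4.70. Summed over each group, the raised loci had 8378 FPKM more in opaque2 and the lowered loci 7670 FPKM more in wild type. None of these differences between the groups was tested, as each rests on 1 value per genotype.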

How the data were processed

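The authors deposited 1 FPKM value per locus for each genotype, per the file headers. Per the submitters' processing notes, the software included Bowtie 0.12.2. The sources used here do not give its role, the FPKM program, the build or the gene models. Loci are listed by position without gene names. Starts count from 0: 48 mitochondrial starts equal a start of the RefSeq table of Zm-B73-REFERENCE-NAM-5.0 after 1 is added, and 0 without it, so 1 was added to each start. Of the nuclear loci, 0 matched a gene of that table by start and end, so positions are in the files' own build and carry no names.

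Log2 ratios (opaque2 over wild type) were taken after adding 1 FPKM as a pseudocount, and a 2-fold rule of size replaced a test, as there is 1 sample per genotype. The code that applies the rule was run on simulated data with planted raised loci, which checks the code and not the rule. Loci named are the 12 of highest ratio, the 8 of highest opaque2 level, the 6 of longest span, 3 on each side of the threshold, and groups at one position or within 100 kb; others are marked as chosen later. The rule, the members and the named loci were chosen with earlier results of these data known. Shares carry exact Clopper-Pearson 95% intervals. Alternatives were other pseudocounts, scalings, floors, ratios, spans, summed positions, and loci at 0 or of high mean kept. Depth is unknown, so no counting error is given. Calculations ran in Python 3.11.15 with pandas 2.3.3, NumPy 2.4.6 and SciPy 1.17.1, and plots were drawn with Matplotlib 3.10.9.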

Additional observations from a re-analysis of the deposited data

How the results depend on the processing

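The number of raised loci followed the rule. It was 214 with a floor of 10 FPKM, 74 with 50 FPKM and 544 with no floor, and 414 at a ratio of 1.5 and 33 at a ratio of 4, against 138 as reported. It stayed between 99 and 156 under the other alternatives. The raised share of eligible loci, 2.69% as reported, was 4.04% with a floor of 50 FPKM, 1.62% with no floor, 8.06% at a ratio of 1.5, 0.643% at a ratio of 4, 2.01% with a pseudocount of 5 and 2.11% for spans of 1000 bp or more. A higher or lower ratio changes both values by construction. A pseudocount of 5 brings every ratio nearer to 1 with the eligible loci unchanged, so both values can only fall. A lower floor can only add raised loci, and a higher floor can only remove them. The limit of 1000 bp takes out a class of which 8.82% were raised (39 of 442). Why the share moved with the floor was not tested. Elsewhere the share stayed inside its interval of 2.26% to 3.17%. The share of raised loci at a shared position, 29.0% as reported, moved to 38.4% for spans of 1000 bp or more, where it was 26.8% of all eligible loci and 49.1% of lowered loci. The median log2 ratio of flanking loci lay between −0.08 and −0.01 throughout. Equal totals without the 6 loci of highest mean, an alternative chosen after seeing the data as was counting raised loci as flanking loci, gave 151 raised and 131 lowered loci. With no minimum span there were 155 raised and 185 lowered. All 138 raised loci were also raised with a pseudocount of 0.1, which can only widen the ratio of a locus higher in opaque2. With a pseudocount of 5, 103 of them were still raised. No paired analysis was possible because there is 1 sample per genotype, and no replicate could be left out. Low levels are limited by an unknown depth.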
